A study of Mus musculus with 6 samples.

Results

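Addition of recombinant DKK3 (rDKK3) to Dkk3-null mouse pancreatic acini was examined as the contrast of 2 treated libraries with 2 untreated ones, which are 4 of the 6 RNA-seq libraries of the study. The members were chosen by the names of the count columns: the treated libraries carry rDKK3 in the name (DD1 + rDKK3 and DD2 + rDKK3) and the untreated ones do not (DD1 and DD2). They were compared as groups and also as same-numbered pairs, because the library names of a treated and an untreated culture share a DD number. The labels do not say whether that number marks a shared animal. The labelled ages differ within a pair, at 12 and 14 weeks for number 1 and 13 and 15 weeks for number 2. If those ages are right, the libraries of a pair are not from 1 animal. In the listed order of the 6 samples the ages run 10, 11, 12, 13, 14 and 15 weeks. Such a run may be an error of labelling, which was not tested.

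The study cultured primary acini from the mouse pancreas for 3 days as a model of acinar-to-ductal metaplasia (ADM), in which enzyme-secreting acinar cells lose their secretory program and take on ductal features. All 6 cultures were embedded in Matrigel and kept in medium with serum, trypsin inhibitor and dexamethasone, a glucocorticoid. The DD libraries carry the genotype DKK3 knockout and treatment none, at labelled ages of 12 and 13 weeks; the treated libraries carry the same genotype and recombinant DKK3, at 14 and 15 weeks; all 4 are labelled male. The WT libraries, 1 labelled male and 1 female at 10 and 11 weeks, were untreated and are given beside the contrast. Age and treatment cannot be told apart if those ages are right, and the sources used here name no vehicle for the untreated cultures. The null allele is present in every cell of the mouse, not only in acinar cells. It replaces the exon for the secretion signal, and the paper reports that Dkk3b, a transcript of the locus for an intracellular product, was unchanged in null acini. No label names an animal. The 2 libraries of a group differ in labelled age, and the 2 WT libraries in sex, so they are separate animals if those labels are right. The p-values measure only the spread between these libraries, part of which may be technical.

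DKK3 is a secreted glycoprotein of the Dickkopf family. Its relatives block Wnt signalling by binding LRP5 and LRP6, whereas DKK3 is less clearly tied to that pathway. The ERK cascade (RAS, RAF, MEK and ERK) is activated by EGF receptor ligands, switches on immediate early genes such as Fos and Egr1 and, later, feedback inhibitors such as the Dusp phosphatases, and is known to drive ADM. NRF2 is a transcription factor held in check by KEAP1; once released, it switches on glutathione synthesis and detoxifying enzymes through antioxidant response elements in their promoters.

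Library depth ranged from 12018473 to 19750401 counts over genes, and the 4 Dkk3-null libraries lay between 16234731 and 19750401. Of 56953 genes listed, 14738 passed the filter on low counts and were tested. Levels are CPM, counts scaled to a common library size with edgeR's TMM factors, and differences are on the log2 scale, treated minus untreated. Values are listed for DD1 and DD2 and then for DD1 + rDKK3 and DD2 + rDKK3, and the difference within pair 1 comes before that within pair 2. Summed CPM of the acinar enzyme list came to 15.9% and 14% of the TMM-scaled library size in DD1 and DD2. It came to 19% and 15.8% in the treated libraries and to 24.7% and 18.9% in WT. The defining genes of the labelled cell type were thus abundant in every library. Shares of other lists below are on the same scaled basis and are not shares of raw counts. In bulk libraries fewer cells of a type and less RNA per cell cannot be told apart. Dkk3 itself had 11 and 9 counts in the DD libraries and 5 and 5 in the treated ones, against 10 and 1 in WT. These counts stayed below the filter in every group. The paper reports similar overall Dkk3 transcript levels in both genotypes, because Dkk3b remains, and saw the loss with exon-specific primers. Counts over the whole gene therefore gave no check of the genotype, and added protein would not appear as mRNA.

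Few genes separated treated from untreated cultures beyond the spread of the libraries. Taken as groups, with all 6 libraries in the fit, no gene had an adjusted p under 0.05 by edgeR's quasi-likelihood test (0% of genes tested, lowest adjusted p = 1). At an unadjusted p under 0.05, 292 genes differed (1.98%): 204 were lower (1.38%) and 88 higher (0.597%) in treated cultures. DESeq2 on the same groups called 5 genes, with Klk1 higher and Fam107b, Phlda1, Plaur and Sfn lower, and limma-voom called none. The groups of DD and treated libraries did not overlap for 2125 genes in the lower direction (14.4%) and for 2228 in the higher one (15.1%).

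Taken as same-numbered pairs, with the number as a block and the 4 Dkk3-null libraries alone, 194 genes passed (1.32%), of which 153 were lower (1.04%) and 41 higher (0.278%). Of these, 189 moved the same way in both pairs, 148 down and 41 up, and 157 had groups that did not overlap. Over all genes tested, 24.9% were lower in both pairs, 26.1% were higher in both and 29.5% had groups that did not overlap. Counts of list members below stand against these shares and those of genes that passed. The pair fit has 1 residual degree of freedom, and edgeR then gave all genes 1 shared residual spread, so its p-values carry little of each gene's own variation. With the same block and the WT libraries kept in the fit, 0 genes passed (424 at an unadjusted p under 0.05), and with no block in the 4 libraries also 0 (428 at an unadjusted p under 0.05). All 194 kept their sign in both of these fits, but these contrast the same 4 Dkk3-null libraries, so the signs could hardly have changed. Of the 194, DESeq2 and limma-voom with the block also both called 41, among them Gsta1, Gsta4, Cbr3, Nqo1, Hmox1, Gclc, Phlda1, Plaur, Ivl, Tspan8, Klk1b4 and Neat1. Below, a gene is said to have passed, fallen or risen when its adjusted p was under 0.05 in edgeR's pair fit. None had an adjusted p under 0.05 in edgeR's comparison of groups with the filter on low counts. Without that filter the comparison of groups called 70 of the 194, and DESeq2 called 4 of them as groups. The comparison without the filter also called Ccl6 and Ccl9, whose 2 pairs moved opposite ways. Fitted fold changes are printed only for genes of the rule stated with the processing, and genes named outside that rule were chosen after their values were seen. Part of that rule required that DD and treated did not overlap. Lower genes chosen in this way were Gsta1, Cbr3, Ivl, Creb3l3, Gsta4, Gm20528, Fabp5, Serpinb9b, Ugdh, Hmox1, Gprc5b and Tspan8. Higher ones were Glb1l2, Neat1, Cbfa2t3, Klk1b11, Firre, Amy1, 1810028F09Rik, Klk1b3, Klk1b5, Klk1b4, Col7a1 and Zbtb16. For all of these the lack of overlap is a condition of choice and not a finding.

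The 2 pairs resembled each other more among large differences. Over the 8876 genes with an average log2 CPM of at least 3, 4431 moved the same way in both pairs and 4445 moved opposite ways (49.9% the same). Where both differences were at least 0.5, 78 genes were lower in both pairs (0.879%), 24 were higher in both (0.27%) and 16 went opposite ways. At a size of at least 1, 6 genes were lower in both, none was higher in both and none went opposite ways. The differences spread more in pair 2 (SD 0.305 over genes) than in pair 1 (SD 0.223), and their Pearson correlation over these genes was 0.184, a description across genes that are not independent.

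**Figure D1:**
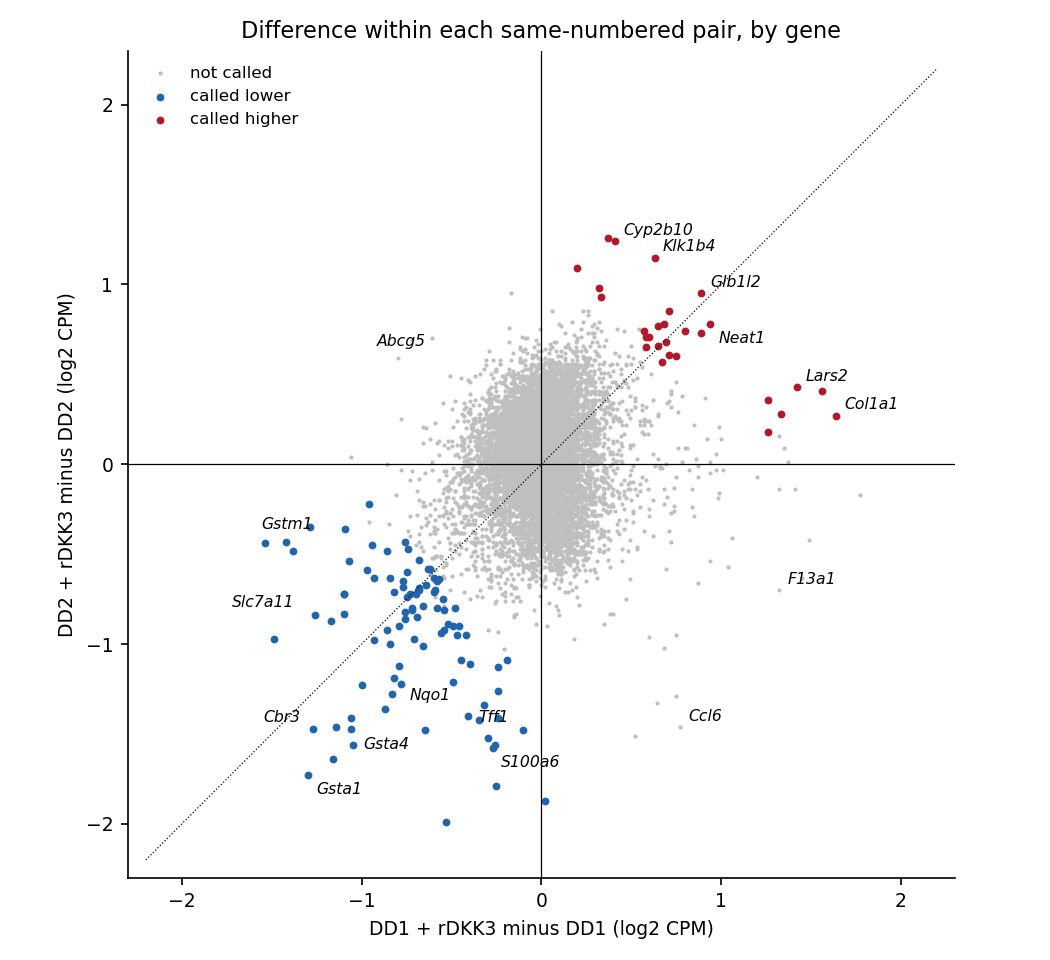
Each point is 1 gene with an average log2 CPM of at least 3; the x axis is the difference DD1 + rDKK3 minus DD1 and the y axis DD2 + rDKK3 minus DD2, both in log2 CPM. Coloured points are the 119 of these genes that passed in edgeR's pair fit, blue for lower and red for higher; 118 of them moved the same way in both pairs, and the dotted line marks equal differences.

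Glutathione and detoxification genes were lower after rDKK3 in both pairs. Of 24 tested genes of the NRF2 antioxidant list, 23 were lower in both treated cultures (24.9% of all genes were), 1 was mixed (Sqstm1, a KEAP1-binding autophagy receptor, with differences of -0.23 and 0.02), and 10 passed in the pair fit, all lower. The list's median difference was -0.67 in pair 1 and -0.44 in pair 2, against 0.00 and 0.01 over all genes tested. Its share of the TMM-scaled library size was 1.66% and 1.12% in DD1 and DD2 and 1.06% and 0.855% in the treated libraries. In WT1 and WT2 it was 0.96% and 1.39%. Within each pair the treated library was lower, but the summed level of DD2 lay only slightly above that of DD1 + rDKK3. On this TMM-scaled basis both WT libraries lay within the span of the other 4.

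Promoters of genes that fell are shown because they hold either of 2 short motifs that are commonly read as binding sequences for NRF2 or AP-1. The sequences are RefSeq's, on build GRCm38.p6, which is not the build of the count table; they run 5′ to 3′ along the gene's strand and each is 100 bases from within the 250 bases before the start of the gene. Capitals mark matches, on either strand, to TGACNNNGC (antioxidant response element core) or TGANTCA (AP-1 element); these overlap where TGACTCAGC or its complement occurs. The first 3 code for detoxifying or redox enzymes: Gsta3, a glutathione S-transferase, at chr1:21240418-21240517 on the plus strand, Ugdh, which makes UDP-glucuronate, at chr5:65435902-65436001 on the minus strand, and Pir, an iron-binding nuclear protein, at chrX:164269181-164269280 on the plus strand.
Gsta3: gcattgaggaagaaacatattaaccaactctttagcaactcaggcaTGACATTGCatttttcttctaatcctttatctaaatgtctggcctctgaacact
Ugdh: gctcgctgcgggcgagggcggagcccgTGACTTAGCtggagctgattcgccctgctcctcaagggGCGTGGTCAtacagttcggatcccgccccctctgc
Pir: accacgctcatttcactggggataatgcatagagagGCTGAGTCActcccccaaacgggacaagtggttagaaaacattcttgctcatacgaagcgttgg
The other 3 are Fam107b, a gene of little-known function, at chr2:3713358-3713457 (plus strand), and the cornified-envelope genes Sprr1a at chr3:92485961-92486060 and Ivl at chr3:92573799-92573898 (both minus strand).
Fam107b: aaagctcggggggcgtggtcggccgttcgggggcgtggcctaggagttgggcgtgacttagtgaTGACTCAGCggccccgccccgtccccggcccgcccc
Sprr1a: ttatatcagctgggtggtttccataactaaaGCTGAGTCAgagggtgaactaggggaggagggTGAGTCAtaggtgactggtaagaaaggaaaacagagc
Ivl: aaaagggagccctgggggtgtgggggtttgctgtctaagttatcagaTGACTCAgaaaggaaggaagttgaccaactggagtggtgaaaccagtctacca
In the window of 250 bases, TGACNNNGC occurred in 13 of the 109 genes called lower that matched the RefSeq table (11.9%), against 14.1% of the 10657 tested genes that matched. TGANTCA occurred in 19 of the 109 (17.4%), against 5.62% of tested genes, and in none of the 29 matched genes called higher. TGACNNNGC occurred in 7 of those 29 (24.1%), among them the paralogs Klk1b11, Klk1b24 and Klk1b27, which share descent. Of the NRF2 list, 5 of 21 matched genes held TGACNNNGC (23.8%), and of the ERK target list 1 of 16 held TGANTCA (6.25%). A match describes letters and not a bound site.

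The alpha class of glutathione S-transferases, which conjugate glutathione to electrophiles, had all 5 tested members lower in both pairs, 4 of them past the test. Gsta1 was at 41.0 and 41.0 CPM in DD and at 16.6 and 12.3 CPM after rDKK3, against 8.06 and 22.5 CPM in WT. It fell by 1.52 ± 0.179 on the log2 scale (SE, pair fit, adjusted p = 1.78e-13), with differences of -1.30 and -1.73. Both treated libraries lay inside the range of WT. Gsta4, which clears the lipid peroxidation product hydroxynonenal, was at 200 and 202 CPM in DD, 96.4 and 68.3 CPM after rDKK3, and 86.8 and 191 CPM in WT. It fell by 1.31 ± 0.191 (SE, pair fit, adjusted p = 1.03e-08). In the comparison of groups, the unadjusted p was 0.00588 for Gsta1 and 0.00689 for Gsta4. Gsta2 was far lower, at 6.1 and 0.941 CPM in DD and 1.21 and 0.0538 CPM after rDKK3, and its groups overlapped. Alpha-class members are close paralogs, and reads that could not be placed on 1 of them would be lost or split, so single-member values are uncertain.

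Other enzymes of the same system followed. Nqo1, a quinone reductase, was at 56.2 and 64.0 CPM in DD and at 32.7 and 27.4 CPM after rDKK3, with 19.5 and 54.8 CPM in WT. Hmox1, heme oxygenase, was at 227 and 154 CPM in DD, 125 and 81.2 CPM after rDKK3, and 126 and 174 CPM in WT. Hmox1 fell by 0.90 ± 0.189 (SE, pair fit, adjusted p = 0.000495), nearly alike in both pairs (-0.86 and -0.92). For Nqo1 the treated libraries lay below both DD libraries, while Hmox1 was chosen by the rule that required this. Gclc, the catalytic subunit of the enzyme that limits glutathione synthesis, was at 1740 and 762 CPM in DD and at 810 and 461 CPM after rDKK3, with 501 and 1070 CPM in WT. Slc7a11, which imports cystine for that synthesis, was at 216 and 70.3 CPM in DD and at 90.0 and 39.3 CPM after rDKK3. Gstm1, a mu-class transferase, was at 1730 and 460 CPM in DD and at 648 and 342 CPM after rDKK3. For these 3 genes each pair went down and the test was passed, yet DD2 lay below DD1 + rDKK3, so that the groups overlapped and the difference rested on the pairing. DD1 was above DD2 in all 3.

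Carbonyl and glucuronidation enzymes outside the list behaved likewise. Cbr3, a carbonyl reductase, was at 135 and 65.6 CPM in DD, at 56.1 and 23.7 CPM after rDKK3, and at 25 and 140 CPM in WT. It fell by 1.37 ± 0.182 (SE, pair fit, adjusted p = 1.52e-10), and DD2 stood close above DD1 + rDKK3. Ugdh was at 369 and 212 CPM in DD, 164 and 116 CPM after rDKK3, and 93.5 and 218 CPM in WT, and fell by 1.02 ± 0.193 (SE, pair fit, adjusted p = 5.39e-05). Of 9 tested UDP-glucuronosyltransferases, which use the product of Ugdh, 7 were lower in both pairs and 4 passed, among them Ugt2b35 (124 and 36.9 CPM in DD, 62.0 and 15.7 CPM after rDKK3). Of 12 aldo-keto reductases 9 were lower in both pairs and 3 passed, and of 22 glutathione S-transferases of all classes 17 were lower in both and 6 passed. The noncoding RNA Gm20528, which lies antisense to the Ugt1a cluster and was counted by strand, was at 40.7 and 16.2 CPM in DD and at 14.4 and 8.23 CPM after rDKK3, a fall of 1.27 ± 0.182 (SE, pair fit, adjusted p = 6.84e-09). Ptgr1, which reduces reactive aldehydes and ketones, was at 259 and 185 CPM and at 121 and 112 CPM after rDKK3. In all of these the level in WT2 was well above that in WT1, so the WT pair gave no single reference level.

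**Figure D2:**
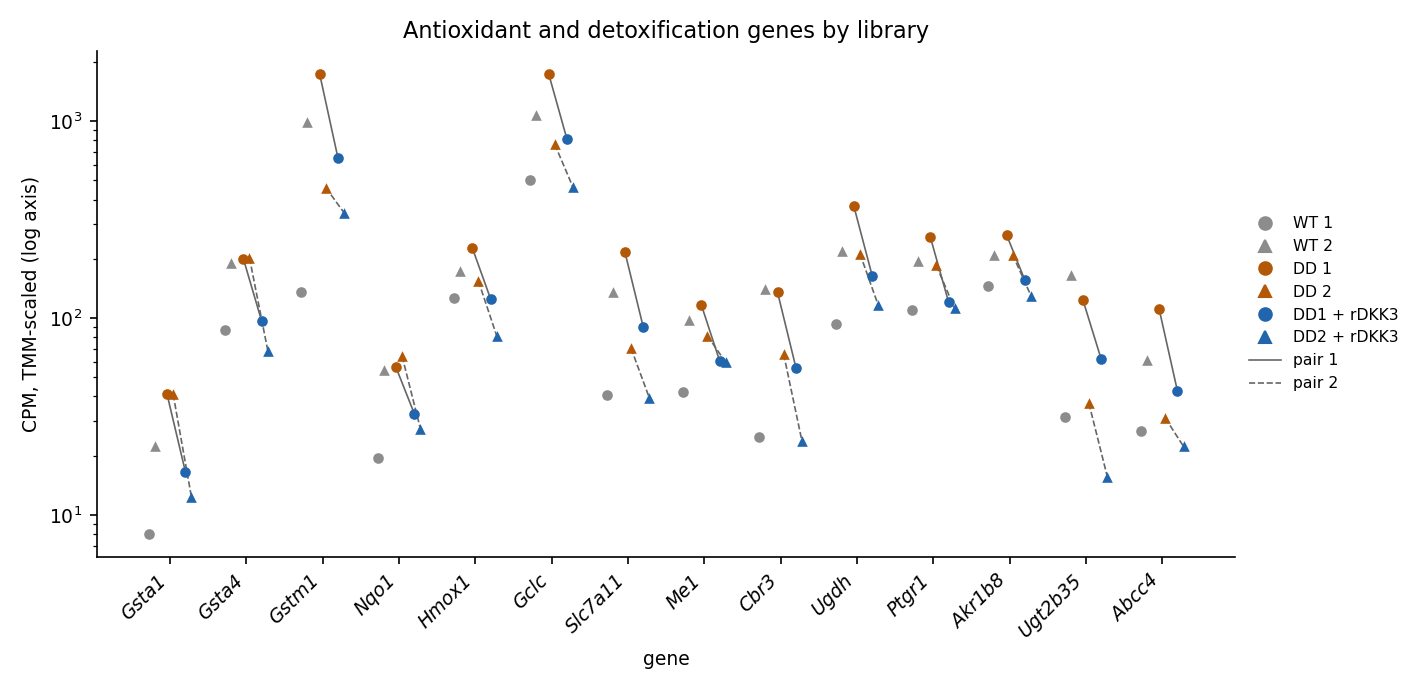
CPM (log axis) of detoxification genes in each of the 6 libraries; grey is WT, orange DD and blue DD with rDKK3, circles are number 1 and triangles number 2, and lines join same-numbered pairs. Every line slopes downward, while the grey points of a gene often lie further apart than the ends of a line.

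Most genes of the ERK target list were lower after rDKK3, whereas the list of immediate early genes showed no common decrease. Of 24 tested genes of the list of ERK feedback inhibitors and targets, 19 were lower in both pairs, 3 higher in both and 2 mixed; 15 had groups that did not overlap in the lower direction (14.4% of all genes did), and 8 passed in the pair fit, all lower. The list's median difference was -0.44 in pair 1 and -0.47 in pair 2. Its share of the TMM-scaled library size was 0.048% and 0.052% in DD, 0.0351% and 0.0374% after rDKK3, and 0.0339% and 0.0361% in WT. The treated libraries thus lay below both DD libraries and near WT.

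Phlda1, a pleckstrin-homology protein induced by growth factors, was at 44.5 and 48.4 CPM in DD, 25.7 and 25.9 CPM after rDKK3, and 20.9 and 25.1 CPM in WT. Plaur, the urokinase receptor, was at 42.8 and 47.6 CPM in DD, 25.3 and 26.9 CPM after rDKK3, and 22.6 and 25.8 CPM in WT. For both, the 2 DD libraries were close together and above the other 4. Phlda1 fell by 0.85 ± 0.174 (SE, pair fit, adjusted p = 0.000297) and Plaur by 0.79 ± 0.174 (adjusted p = 0.00107), with group-fit unadjusted p of 0.000597 and 0.000832. Ccnd1, cyclin D1, was at 32.7 and 29.5 CPM in DD and 19.1 and 18.7 CPM after rDKK3, a fall of 0.72 ± 0.175 (SE, pair fit, adjusted p = 0.00537). In WT Ccnd1 was at 31.1 and 27.7 CPM, the level of DD, so the treated libraries lay below both other groups.

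Among the feedback inhibitors, Dusp6, the cytoplasmic ERK phosphatase, was at 21.6 and 27.7 CPM in DD and at 13.4 and 17.2 CPM after rDKK3, and passed. Spry1, a Sprouty inhibitor of receptor signalling, was not lower: it was at 5.06 and 6.53 CPM in DD and 6.87 and 8.87 CPM after rDKK3. Fosl1, the AP-1 subunit FRA1, was at 8.66 and 9.47 CPM in DD and 4.33 and 5.65 CPM after rDKK3, and Epha2, an ephrin receptor, at 30.6 and 32.2 CPM and 17.1 and 20.8 CPM. Both passed, and neither overlapped between the groups. The core of the cascade did not move with them: of 21 tested RAS, RAF, MEK and ERK genes 5 were lower in both pairs, 2 higher in both and 14 mixed, and none passed.

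Immediate early genes, also ERK-responsive, showed no common decrease. Of 28 tested AP-1, EGR and other immediate early genes 14 were higher in both pairs, 7 lower in both and 7 mixed, none passed, and the list's medians were 0.08 and 0.05. The AP-1 subunit gene Fosl1, which passed as lower, was counted in the ERK target list and not here. The contrast between the 2 lists thus depends in part on where such genes were placed. Fos was at 78.8 and 118 CPM in DD, 55.4 and 98.0 CPM after rDKK3, and 8.06 and 37.7 CPM in WT. Its fitted difference was -0.39 ± 0.181 (SE, pair fit, adjusted p = 0.55), and the groups overlapped. Jun was at 80.6 and 81.0 CPM in DD and 101 and 106 CPM after rDKK3, with a difference of 0.35 ± 0.181 (SE, pair fit, adjusted p = 0.68). Egr1, at 78.4 and 135 CPM in DD and 96.9 and 153 CPM after rDKK3, Junb, at 121 and 168 CPM and 125 and 162 CPM, and Dusp1, at 64.1 and 81.5 CPM and 58.9 and 77.5 CPM, differed more between numbers 1 and 2 than between treated and untreated. Egr1, Junb and Dusp1 changed the sign of their fitted difference when single libraries were left out. Atf3, a stress-induced factor of the same list, was at 12.7 and 15.5 CPM in DD and 21.6 and 19.0 CPM after rDKK3.

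Of 13 tested EGF receptor ligands, receptors and related genes 5 were higher in both pairs, 3 lower in both and 5 mixed. The ligands Areg and Hbegf passed and were lower. Both also belong to the ERK target list and were counted among its 8 genes that passed. Areg, amphiregulin, was at 7.34 and 11.3 CPM in DD, 4.54 and 4.95 CPM after rDKK3, and 2.36 and 3.58 CPM in WT. It fell by 0.95 ± 0.205 (SE, pair fit, adjusted p = 0.000804), and every DD library lay above every treated one. Hbegf was at 11.1 and 13.2 CPM in DD and 6.65 and 7.96 CPM after rDKK3, while WT1, at 11.9 CPM, matched DD. Ereg, epiregulin, moved opposite ways (0.47 and -0.44), and Egf was at 1.56 and 1.65 CPM and 3.86 and 2.15 CPM after rDKK3 without passing. The receptors Egfr (28.3 and 24.6 CPM, then 26.5 and 30.4 CPM) and Erbb2 (18.6 and 15.0 CPM, then 19.6 and 20.6 CPM) did not pass either.

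Plaur belongs to the plasminogen activation system, which turns plasminogen into plasmin at the cell surface. Of 10 tested genes of that list 7 were lower in both pairs and 2 higher in both, and 3 passed as lower. Plaur is among those 3 and was already counted in the ERK target list. Plat, tissue plasminogen activator, was at 229 and 241 CPM in DD, 145 and 86.4 CPM after rDKK3, and 197 and 165 CPM in WT. S100a10, a cell-surface plasminogen receptor subunit, was at 63.4 and 145 CPM in DD and 51.4 and 50.7 CPM after rDKK3. Neither overlapped between DD and treated, but most of the decrease in S100a10 came from pair 2 (-0.30 and -1.52). Vtn, vitronectin, a ligand of the urokinase receptor, passed as higher, from 2.79 and 1.82 CPM to 5.76 and 3.23 CPM.

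**Figure D3:**
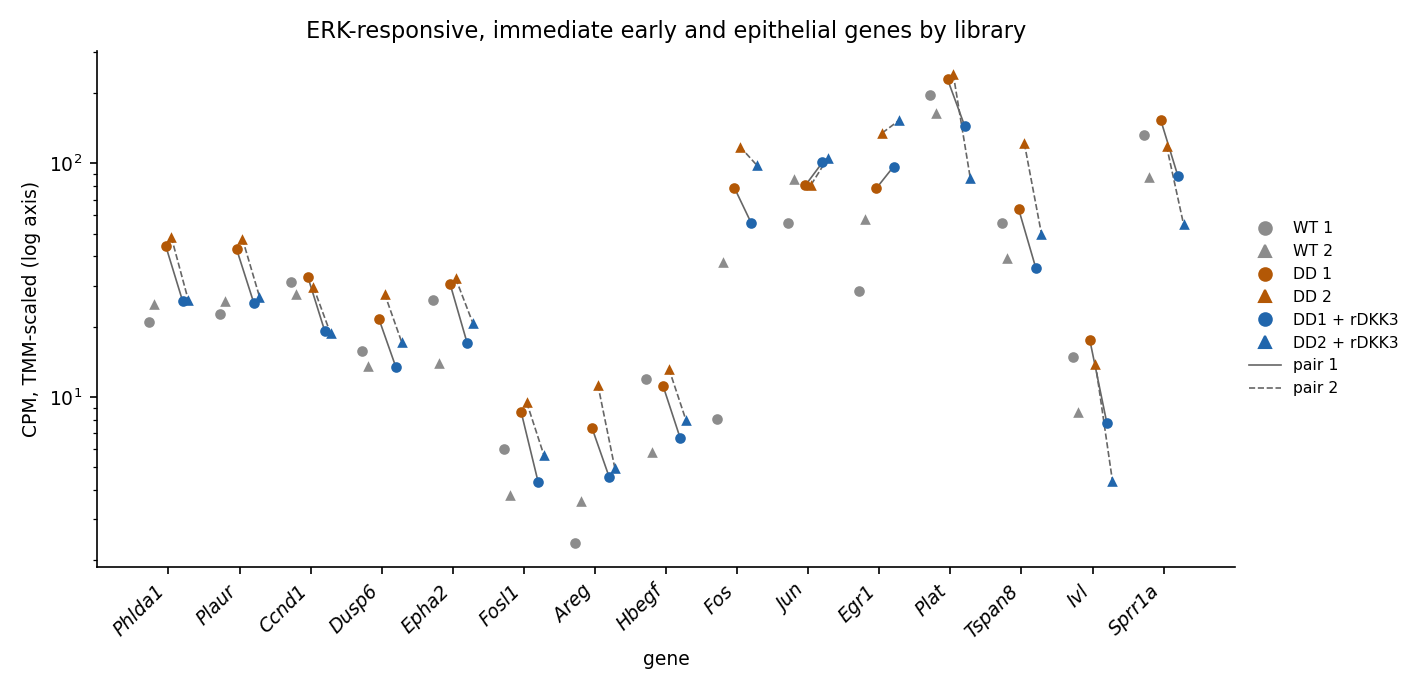
CPM (log axis) of ERK targets, immediate early genes, EGF receptor ligands and epithelial genes in each library, with colours, shapes and lines as in the plot of detoxification genes. Lines of Phlda1, Plaur and Ccnd1 fall in parallel, while those of Jun and Egr1 slope upward.

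Ductal and metaplasia markers were divided. Of 30 tested ductal and metaplasia markers 15 were lower in both pairs, 5 higher in both and 10 mixed; 5 passed, all lower, and the medians were -0.12 and -0.29. Tspan8, a tetraspanin of epithelial membranes, was at 63.7 and 122 CPM in DD, 35.8 and 50.1 CPM after rDKK3, and 55.5 and 39.4 CPM in WT. Tspan8 fell by 1.07 ± 0.18 (SE, pair fit, adjusted p = 1.98e-06) and was chosen by the rule that required no overlap. Anxa3, an annexin, was at 239 and 324 CPM in DD and 159 and 186 CPM after rDKK3, and Krt20, a keratin of gastrointestinal epithelium, at 32.7 and 45.9 CPM and 23.4 and 26.2 CPM. The defining ductal genes did not pass. Krt19, the ductal keratin, was at 695 and 800 CPM in DD, 578 and 593 CPM after rDKK3, and 910 and 519 CPM in WT, with a difference of -0.35 ± 0.203 (SE, pair fit, adjusted p = 0.794). Sox9, the transcription factor of duct cells, was at 16.2 and 14.1 CPM in DD and 16.6 and 20.5 CPM after rDKK3, with a difference of 0.29 ± 0.177 (SE, pair fit, adjusted p = 0.859).

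Ivl (involucrin) and Sprr1a, genes of no fixed list whose promoters are printed above, encode precursors of the cornified envelope of squamous epithelium. Ivl was at 17.6 and 13.9 CPM in DD, 7.76 and 4.36 CPM after rDKK3, and 14.9 and 8.64 CPM in WT, and fell by 1.40 ± 0.193 (SE, pair fit, adjusted p = 8.41e-10). Sprr1a was at 153 and 119 CPM in DD, 88.4 and 54.9 CPM after rDKK3, and 132 and 87.7 CPM in WT, and passed. For Sprr1a the treated libraries lay below both DD libraries, which for Ivl was a condition of choice. For both genes, DD1 + rDKK3 reached or came near WT2. Sfn, stratifin, an adaptor protein of stratified epithelium, was at 111 and 110 CPM in DD and 71.6 and 69.3 CPM after rDKK3. Fam107b was at 49.3 and 50.3 CPM in DD and 27.9 and 21.9 CPM after rDKK3, a fall of 1.01 ± 0.175 (SE, pair fit, adjusted p = 4.12e-06), with an unadjusted p of 0.000539 in the group fit.

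Some trefoil and S100 genes fell, several of them unequally in the 2 pairs. All 3 tested trefoil factors, mucus-associated peptides of gastric and intestinal epithelium, were lower in both pairs and 2 passed. Tff1 was at 265 and 1230 CPM in DD, 199 and 464 CPM after rDKK3, and 83.7 and 59.7 CPM in WT, so that the large decrease was in pair 2 and DD1 lay inside the treated range. Tff3 was at 55.7 and 31.4 CPM and 22.7 and 24.5 CPM after rDKK3, with the larger decrease in pair 1. Of 8 tested S100 genes, which encode small calcium-binding proteins, 7 were lower in both pairs and 4 passed. S100a6 was at 128 and 451 CPM in DD and 106 and 151 CPM after rDKK3 (differences of -0.27 and -1.58), whereas S100a11, at 163 and 180 CPM and 103 and 105 CPM, went down alike in both (-0.66 and -0.79). Cldn18, a claudin of gastric tight junctions, was at 22.9 and 20.8 CPM in DD, 14.7 and 13.9 CPM after rDKK3, and 12.9 and 12.7 CPM in WT.

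Further genes with a large decrease in both pairs came from lipid handling, signalling and secretion. Fabp5, an epidermal fatty acid carrier, was at 207 and 310 CPM in DD, 108 and 158 CPM after rDKK3, and 133 and 112 CPM in WT, and fell by 0.96 ± 0.192 (SE, pair fit, adjusted p = 0.000208). Acer2, an alkaline ceramidase, was at 16.9 and 14.3 CPM in DD and 7.82 and 8.01 CPM after rDKK3, with 8.15 and 6.46 CPM in WT. Gprc5b, an orphan receptor, was at 36.8 and 30.2 CPM in DD and 20.5 and 15.1 CPM after rDKK3. Fabp5 and Gprc5b were chosen by the rule that required no overlap between DD and treated. Acer2 did not overlap either, and its 2 treated values lay within the WT range. Creb3l3, a membrane-bound transcription factor of lipid metabolism, was at 15.0 and 13.5 CPM in DD, 7.13 and 4.79 CPM after rDKK3, and 5.3 and 9.76 CPM in WT, and fell by 1.27 ± 0.193 (SE, pair fit, adjusted p = 5.24e-08). Serpinb9b, a granzyme-inhibiting serpin, was at 33.2 and 67.9 CPM in DD, 18.1 and 26.4 CPM after rDKK3, and 8.35 and 13.8 CPM in WT. Sema3e, a secreted semaphorin, was at 10.4 and 10.8 CPM in DD, 3.54 and 2.9 CPM after rDKK3, and 1.47 and 2.67 CPM in WT; its average level lay under the minimum for the genes named by rule.

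Few glycolysis and cell cycle genes passed. Of 28 tested glycolysis and hypoxia response genes 22 were lower in both pairs, 1 higher in both and 5 mixed, with medians of -0.23 and -0.25. Groups did not overlap for 14 of them in the lower direction, against 14.4% of all genes. The 1 that passed was Egln3, a prolyl hydroxylase that responds to hypoxia, at 34.8 and 46.7 CPM in DD and 30.5 and 21.9 CPM after rDKK3. Slc2a1, a glucose transporter, was at 162 and 126 CPM in DD and 107 and 98.6 CPM after rDKK3 and did not pass. Of 38 tested cell cycle genes 24 were lower in both pairs and 3 higher in both, and 1 passed: Cdk1, the mitotic kinase, at 3.36 and 6.76 CPM in DD and 2.06 and 3.5 CPM after rDKK3. Groups did not overlap in the lower direction for 7 of the 38, close to the share of all genes (14.4%). Mki67, a proliferation marker, was at 4.02 and 5.58 CPM in DD and 2.8 and 5.75 CPM after rDKK3. Of 35 actin and focal adhesion genes 20 were lower in both pairs and none passed. Of 79 tested nuclear respiratory chain genes 28 were lower in both pairs, 1 higher in both and 50 mixed, and none passed.

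Tissue kallikreins were higher after rDKK3. These secreted serine proteases are encoded in 1 cluster on chromosome 7 (43600088 to 43879042, GRCm39), and 10 of the 11 tested members were higher in both pairs (26.1% of all genes were), with 6 past the test. The median difference over the 11 was 0.65 in pair 1 and 0.73 in pair 2. The promoters of the 6 that passed are shown because the paralogs share their sequence just before the gene start. Each is 68 bases from RefSeq on GRCm38.p6, all on the plus strand of chromosome 7, and capitals mark a shared TTTAAA; the windows begin at position 44198118 for Klk1b3, 44207325 for Klk1b4, 44216372 for Klk1b5, 43995777 for Klk1b11, 44188145 for Klk1b24 and 44052213 for Klk1b27.
Klk1b3: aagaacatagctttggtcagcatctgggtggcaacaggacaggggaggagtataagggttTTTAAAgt
Klk1b4: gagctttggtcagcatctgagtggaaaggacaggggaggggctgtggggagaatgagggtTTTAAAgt
Klk1b5: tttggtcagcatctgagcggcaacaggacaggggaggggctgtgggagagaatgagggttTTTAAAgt
Klk1b11: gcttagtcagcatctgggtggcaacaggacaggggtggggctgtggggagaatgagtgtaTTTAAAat
Klk1b24: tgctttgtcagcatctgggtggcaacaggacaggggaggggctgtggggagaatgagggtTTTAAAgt
Klk1b27: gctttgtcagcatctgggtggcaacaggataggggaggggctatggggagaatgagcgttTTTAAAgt
Aligned to Klk1b5, the other windows were identical at 67.1% (Klk1b3), 87.5% (Klk1b4), 85.5% (Klk1b11), 90% (Klk1b24) and 87.1% (Klk1b27) of positions. TTTAAA, which reads the same on both strands, occurred in the 250 bases before the start of 11 of 29 matched genes called higher (37.9%), against 10.3% of tested genes; the 6 kallikreins are among the 11 and share descent.

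Klk1b4 was at 21.2 and 16.9 CPM in DD, 32.7 and 37.6 CPM after rDKK3, and 24.4 and 28.2 CPM in WT, and rose by 0.89 ± 0.176 (SE, pair fit, adjusted p = 0.000185). Klk1b5 was at 25 and 23.5 CPM in DD, 39.2 and 40.0 CPM after rDKK3, and 39.7 and 38.1 CPM in WT, and rose by 0.70 ± 0.174 (adjusted p = 0.0065). Klk1b3 was at 30.4 and 31.3 CPM in DD, 47.9 and 49.4 CPM after rDKK3, and 37.5 and 49.5 CPM in WT. In each case both DD libraries also lay below both WT libraries, while DD below treated was a condition of choice. Klk1b11 (9.61 and 8.82 CPM in DD, 17.9 and 14.7 CPM after rDKK3) and the weakly expressed Klk1b24 (2.65 and 2.47 CPM, then 4.75 and 6.72 CPM) and Klk1b27 (1.09 and 0.705 CPM, then 2.48 and 2.64 CPM) also rose. Klk1, the most abundant member, was at 1750 and 1480 CPM in DD, 2540 and 2490 CPM after rDKK3, and 2280 and 2370 CPM in WT, and did not pass in the pair fit. Reads that match several paralogs would be lost or split, so the members are not independent measurements.

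Acinar enzymes, which the kallikreins accompany in acinar cells, leaned higher. Of 32 tested acinar enzyme genes 18 were higher in both pairs, none lower in both and 14 mixed; 2 passed, both amylases, and the medians were 0.45 and 0.13. Amy1 was at 99.2 and 152 CPM in DD, 160 and 244 CPM after rDKK3, and 178 and 114 CPM in WT, a rise of 0.68 ± 0.189 (SE, pair fit, adjusted p = 0.0297). DD2 and DD1 + rDKK3 were close, and WT overlapped both groups. Amy2b, annotated as a pseudogene, was at 38.4 and 56.1 CPM in DD and 55.3 and 71.4 CPM after rDKK3, far under the 404 and 230 CPM of WT, with a difference of 0.43 ± 0.174 (SE, pair fit, adjusted p = 0.37). Pnliprp1, a pancreatic lipase-related protein, was at 7570 and 6620 CPM in DD, 12300 and 8400 CPM after rDKK3, and 14900 and 11600 CPM in WT, with a difference of 0.52 ± 0.211 (adjusted p = 0.382). Prss3, a trypsinogen, was at 109 and 92.1 CPM in DD and 122 and 77.2 CPM after rDKK3, so the pairs went opposite ways. Cckar, the cholecystokinin receptor of acinar cells, was at 613 and 519 CPM in DD and 734 and 937 CPM after rDKK3. Of the 11 acinar transcription factors tested, none passed, and their medians had opposite signs (-0.12 and 0.26).

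Among other genes that rose, Glb1l2, a lysosomal galactosidase-like gene, was at 6.86 and 6.17 CPM in DD, 12.8 and 12.0 CPM after rDKK3, and 16.1 and 18.7 CPM in WT. It rose by 0.93 ± 0.192 (SE, pair fit, adjusted p = 0.000398), with the treated libraries between DD and WT. Cbfa2t3, a transcriptional corepressor, was at 8.66 and 9.99 CPM in DD and 15.2 and 16.7 CPM after rDKK3, above WT at 8.15 and 8.92 CPM. Neat1, the scaffold RNA of nuclear paraspeckles, was at 121 and 105 CPM in DD, 233 and 181 CPM after rDKK3, and 54.1 and 212 CPM in WT. WT2 thus lay between the treated libraries. Firre, a nuclear noncoding RNA, was at 8.76 and 8.99 CPM in DD and 14.4 and 16.4 CPM after rDKK3, with WT at 2.85 and 15.5 CPM. Col7a1, anchoring-fibril collagen, was at 15.8 and 13.2 CPM and 26.5 and 20.1 CPM after rDKK3. Bmf, an apoptosis gene, was at 44.3 and 39.4 CPM and 60.8 and 65.8 CPM after rDKK3, with a difference of 0.59 ± 0.174 (SE, pair fit, adjusted p = 0.0507). The noncoding 1810028F09Rik, next to Rnase1 on the same strand of chromosome 14, rose (differences of 0.68 and 0.78), and Rnase1, the pancreatic ribonuclease, was at 327 and 400 CPM and 537 and 533 CPM.

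All cultures contained dexamethasone. Of 17 tested glucocorticoid receptor targets 12 were higher in both pairs, 2 lower in both and 3 mixed, with medians of 0.18 and 0.22, and 1 passed. Zbtb16, a zinc-finger factor strongly induced by glucocorticoids, was at 18.3 and 14.9 CPM in DD, 27.7 and 24.4 CPM after rDKK3, and 16.8 and 21.3 CPM in WT. It rose by 0.65 ± 0.176 (SE, pair fit, adjusted p = 0.0215), with both treated libraries also above both WT libraries. The widely used targets Fkbp5 (400 and 375 CPM, then 365 and 464 CPM) and Tsc22d3 (21.8 and 29.5 CPM, then 24.2 and 30.3 CPM) overlapped between the groups. Whether the dexamethasone exposure of the cultures differed was not tested.

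**Figure D4:**
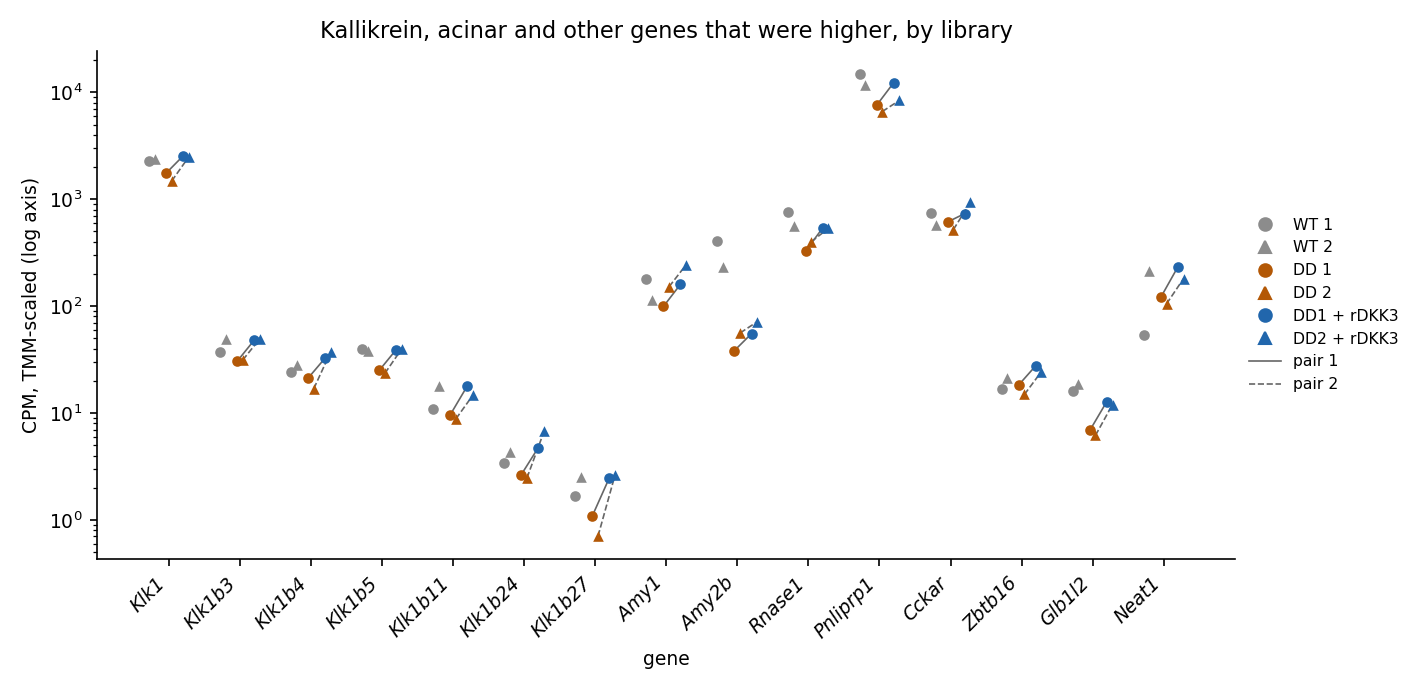
CPM (log axis) in each library of kallikrein and acinar genes and of Zbtb16, Glb1l2 and Neat1, with colours, shapes and lines as in the plot of detoxification genes. Every line slopes upward; the amylase Amy2b stays below WT in all 4 Dkk3-null libraries.

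The pathway closest to DKK3 by family showed few differences. Of 9 tested Dickkopf relatives and receptors 5 were higher in both pairs and 1 lower in both, and none passed; Lrp5 was at 62.9 and 56.9 CPM in DD and 60.1 and 56.3 CPM after rDKK3, and Lrp6 at 66.8 and 57.2 CPM and 68.0 and 70.3 CPM. Of 14 tested Wnt and beta-catenin targets 5 were higher in both, 3 lower in both and 6 mixed, and the 1 that passed was Ccnd1, which the ERK list also holds. Myc, another target, was at 59.8 and 59.1 CPM in DD and 61.2 and 60.4 CPM after rDKK3. Axin2 and Lgr5 were below the filter on low counts. In the IL6, JAK and STAT3 list, 10 of 26 tested genes were higher in both pairs, 5 lower in both and 11 mixed, and 1 passed, Fgg, a fibrinogen chain, which went from 1.09 and 2.06 CPM to 0.317 and 0.538 CPM.

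Markers of fibroblasts and macrophages differed more between culture numbers than between treated and untreated. The 23 tested fibroblast and stellate markers took 0.0277% of the TMM-scaled library size in DD1 and 0.204% in DD2. In the same-numbered treated cultures they took 0.0478% and 0.202%, so their DD and treated ranges overlapped. Their median difference was 0.87 in pair 1 and -0.01 in pair 2. Col1a1 and Col1a2, the fibrillar collagen chains of fibroblasts, passed as higher in the pair fit, but Col1a1 was at 15.9 and 252 CPM in DD and 49.8 and 305 CPM after rDKK3, so number 2 exceeded number 1 by far more than treated exceeded untreated. The 15 macrophage markers had medians of 0.63 and -0.04, and C1qa, a complement chain, was at 2.08 and 22.8 CPM in DD and 4.17 and 18.3 CPM after rDKK3. Of 17 tested islet markers 13 were mixed, 3 higher in both pairs and 1 lower in both, with medians of 0.31 and -0.41. Adipocyte markers took 0.0658% and 0.0707% of the TMM-scaled library size in DD and 0.0601% and 0.0586% after rDKK3. Of 8 tested, 6 were lower in both pairs with groups that did not overlap, against 14.4% of all genes without overlap in that direction. Fabp4, Cd36 and Cidea passed, while Adipoq, Plin1, Lep and Cfd were all below the filter on low counts. Cidea, a lipid droplet protein, was at 10.7 and 7.64 CPM in DD and 5.92 and 3.23 CPM after rDKK3. Of 4 tested mesothelial markers 3 were lower in both pairs with groups that did not overlap, also against 14.4% of all genes. The share of these markers in the TMM-scaled library size was 0.0462% and 0.0415% in DD and 0.0327% and 0.0337% after rDKK3. The 1 that passed was Msln, mesothelin, at 14.2 and 32.6 CPM in DD and 12.0 and 12.2 CPM after rDKK3. The part that the makeup of the cultures played in the results above was not tested.

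Some gene classes moved in opposite directions in the 2 pairs, or mainly in 1 pair. Mitochondrially encoded genes had medians of -0.40 and 0.39, with mt-Nd2 at 1030 and 953 CPM in DD and 756 and 1330 CPM after rDKK3. The 80 cytosolic ribosomal protein genes moved little in pair 1 and were lower in pair 2, with medians of 0.05 and -0.37. Among them 26 were lower in both pairs and 54 mixed, and none was higher in both (24.9% of all genes were lower in both). Of 18 tested chemokines 15 were mixed, and Ccl6 and Ccl9 went up in pair 1 (0.77 and 0.75) and down in pair 2 (-1.46 and -1.29). Among genes with an average log2 CPM of at least 3, the others with the largest opposite differences were F13a1 (1.32 and -0.70), Kcne3 (0.75 and -0.95) and the noncoding AV064505 (0.68 and -1.02), which were up in pair 1. Down in pair 1 and up in pair 2 were the sterol transporters Abcg5 (-0.80 and 0.59) and Abcg8 (-0.72 and 0.69), Duox2 (-0.61 and 0.70), which makes hydrogen peroxide, and Pafah2 (-0.51 and 0.49). Of the 194 genes that passed, 5 likewise moved opposite ways or in 1 pair alone: Cyp2a5, Ly6m, Ppbp, Prap1 and Wfdc17.

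**Figure D5:**
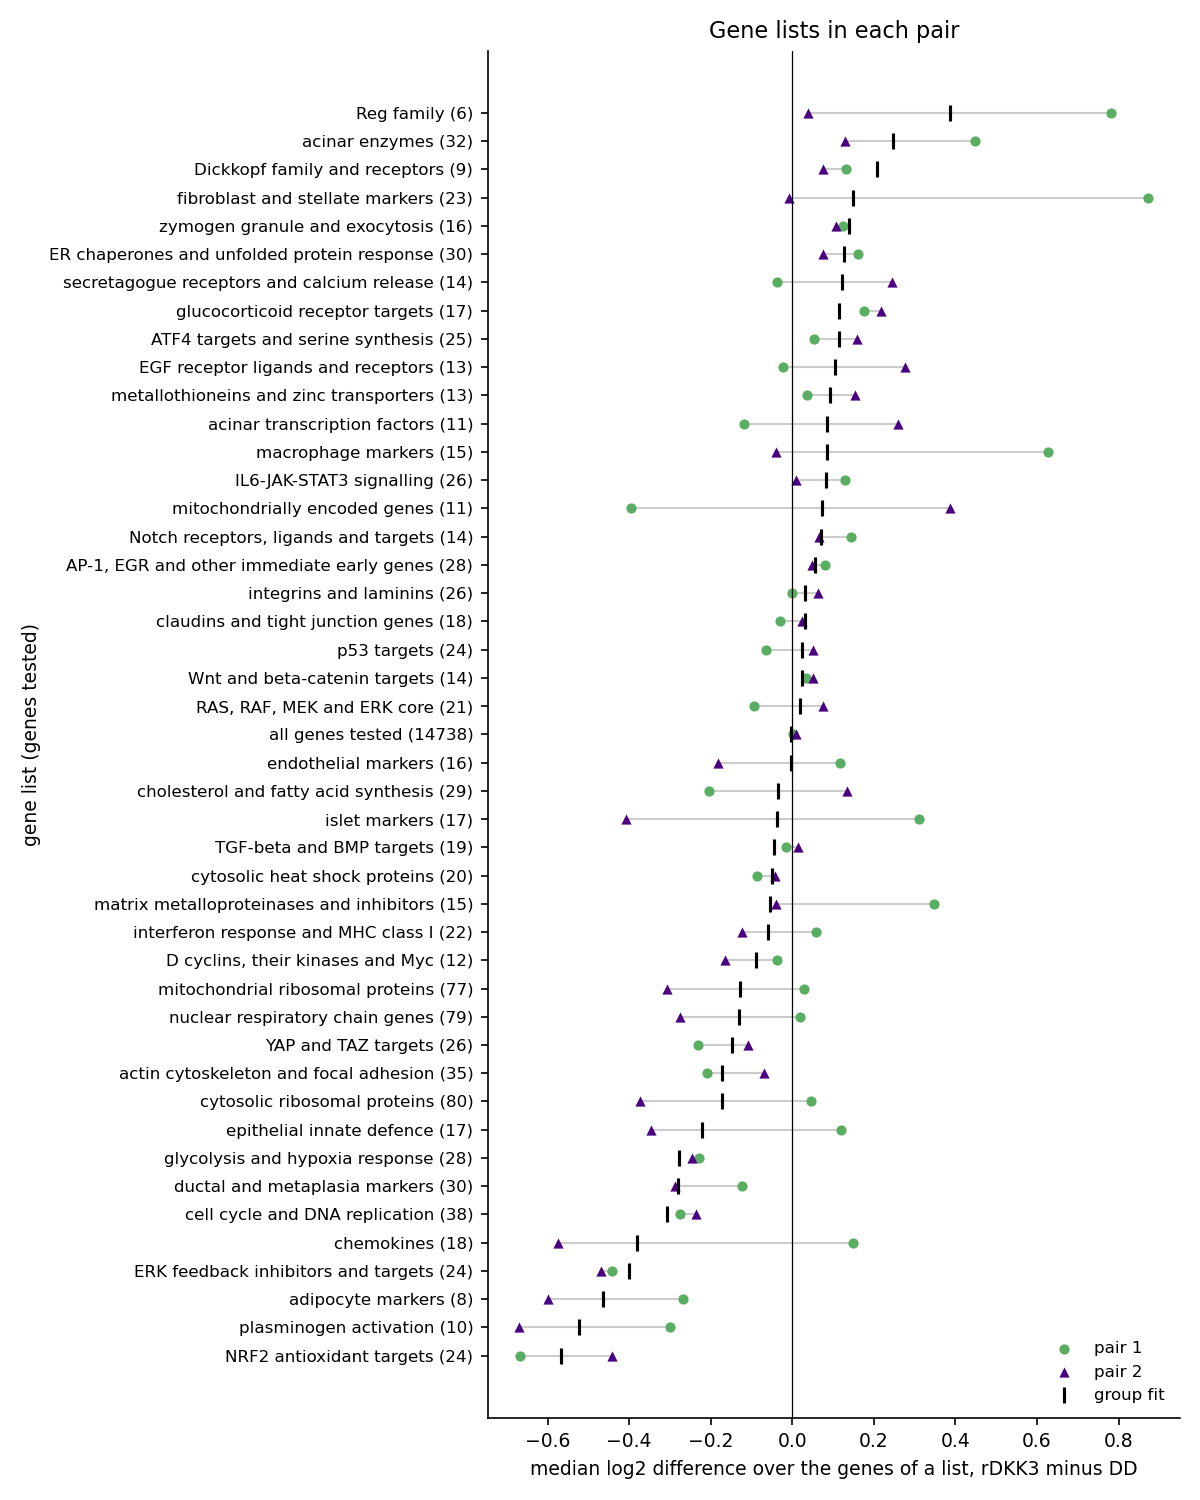
Median log2 difference, treated minus untreated, over the tested genes of each list, with circles for pair 1, triangles for pair 2 and vertical bars for the fit of groups. The NRF2 and ERK target lists lie below 0 in both pairs, whereas fibroblast, macrophage, islet and mitochondrially encoded genes lie far apart between the pairs.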

How the data were processed

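Per the study's methods and the labels, acinar RNA was prepared with a directional kit and sequenced in read pairs; the authors mapped reads with STAR 2.7.9a to GRCm39 and counted strand-specifically over exons, and the deposited table holds raw counts per gene. The processing notes also name Picard 2.19.2, DESeq2 1.38.0 and R 4.2.2. All 92 spike-in rows held 0 counts and were left out. Groups were taken from the sample titles.

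Genes were kept by edgeR's filterByExpr (minimum count 10, minimum total 15) and scaled by TMM. Group differences came from edgeR 4.0.16's quasi-likelihood test on 6 libraries and 3 groups, and pair differences from the same test on 4 libraries with the DD number as a block; p-values were Benjamini-Hochberg adjusted over all 14738 genes. Differences within a pair used log2 CPM with a prior count of 2. Alternatives used limma 3.58.1 and DESeq2 1.42.0 under R 4.3.3; promoter strings were searched in Python 3.11.15. Fits were tested on simulated counts.

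Fitted values are printed for genes the study names for these cultures, for up to 12 genes a direction with the largest smaller pair difference (log2 CPM at least 3, same sign, no overlap), and for up to 5 a direction with the smallest p in each fit; up to 3 genes of each list and up to 5 for each pattern of opposite signs complete the rule. The members and lists were chosen with earlier results of these data known. Of 48 lists, holding 1020 tested genes, those not described had at most 2 genes past the pair test each. A count of 3 corresponds to 0.142 to 0.295 CPM, a floor that covers counting error only, since the reads carry no molecular identifiers.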

Additional observations from a re-analysis of the deposited data

How the results depend on the processing

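Compared as groups, 0 genes passed under edgeR with RLE scaling, library size alone, a CPM filter, limma-voom, the 4 Dkk3-null libraries alone, and without any 1 of the 6 libraries; 73 passed with no low-count filter (5 higher, 68 lower) and 5 with DESeq2. In the pair fit, 195, 168, 174, 194 and 189 genes passed with RLE scaling, library size alone, no filter, a CPM filter and limma-voom, and 195 with a robust spread, an alternative chosen after seeing the data, as were list medians under the block over 6 libraries. DESeq2 with the replicate block called 44, of which 41 were among the 194, and the replicate block with all 6 libraries and the 4 libraries without a block called 0 each (lowest adjusted p = 0.524 and 1 by edgeR). Library size alone split the pair calls into 23 higher and 145 lower, a shift of the median difference in pair 1 to -0.08. The cause of these changes was not tested.

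Same-numbered DD and treated libraries deviated together from their group means (correlation 0.65 across genes). The same measure was -0.387 for DD and WT and -0.247 for treated and WT libraries, which differ in genotype. With 2 libraries a group it rests on 1 difference per group. With 2 pairs, no label of a shared animal and labelled ages that differ within a pair, the pairing stays a shared number. Leaving out 1 library leaves 1 pair and no residual degrees of freedom, so each pair's own difference is given in place of a test.

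Genes higher by at least 1 in both pairs numbered 0, and 24 and 246 at sizes of 0.5 and 0.25, and 2 at a level of at least 0; genes lower by at least 1 numbered 6, and 78 and 284 at those sizes, 2 at a level of at least 5 and 19 at a level of at least 0. In the group fit, leaving out 1 library at a time gave differences from -0.315 to 0.0893 for Dusp1, -0.154 to 0.674 for Egr1, -0.252 to 0.247 for Junb and -0.391 to 0.273 for Prss3, none of which passed. Signs turned without DD1 (Egr1 -0.138, Prss3 0.0899) or DD2 + rDKK3 (Egr1 -0.154, Prss3 0.273), and without DD2 (Dusp1 0.0893, Junb 0.247) or DD1 + rDKK3 (Dusp1 0.0774, Junb 0.15). With 2 libraries a group, the number of libraries limits the precision of each value.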
